A study of Mus musculus with 5 samples.

Results

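The regions described here are 5303 autosomal tiles of 1000 bp in which CpG methylation was low and few CpGs were covered. A CpG is a cytosine followed by a guanine, the main site of DNA methylation in mammals. A tile was taken where 3 to 9 CpGs had at least 10 reads in every library, where each of its 2 neighbour tiles held fewer than 10 such CpGs, and where the methylation level, averaged over CpGs and then over the 3 wild-type libraries, was under 20%. The tiles were 5303 of 62044 that met the rule on CpG number at any level, and of 148637 autosomal tiles with at least 1 covered CpG. They held 27396 covered CpGs. The tiles were thus chosen by their wild-type level, so that the low level in wild-type libraries is a description and was not tested.

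The study measured DNA methylation with ERRBS, the enhanced form of reduced representation bisulfite sequencing, in LSK cells, the Lin- Sca1+ cKit+ fraction of mouse bone marrow enriched for blood stem cells and early progenitors. In this assay the enzyme MspI cuts DNA at CCGG, and bisulfite converts cytosine that carries no methyl group so that it is sequenced as T. There were 2 targeted libraries, titled as knockouts but with a genotype label of +/-, and 3 wild-type libraries, all of C57BL/6 mice. The targeting is germ line, so it is carried by every cell of those animals. No age or sex is stated for these libraries, and nothing in the labels ties a library to an animal of its own, so each p-value measures only the spread between libraries, which may be technical. LSK cells are a mixture, and a tile methylated in a few cells of the mixture cannot be told apart from a tile partly methylated in all of them. Genes that define LSK cells or other marrow cells gave no check of the labelled cell type, because none of their starts could be placed on the tables.

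Most CpGs of a mammalian genome are methylated. The common exception is the CpG island, a CpG-rich stretch at a gene start where methylation is kept off. Low methylation outside islands is known at enhancers and at sites held by DNA-binding proteins, where DNA methyltransferases are hindered or TET enzymes oxidise the methyl group. ERRBS sees only CpGs near MspI sites.

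The rule counts covered CpGs, and all CpGs of the sequence were not counted for most tiles. Promoter sequences could be read for the 521 tiles with a placed gene start, a placement that needs 3 covered CpGs and so favours CpG-rich starts. Of the 573 RefSeq promoters placed on these tiles, 541 held at least 7 CpGs in 300 bases, the median over all promoters of the table, and 140 held 20 or more. The 250 bases before the start are printed 5′ to 3′ for 4 genes of these tiles that differ in CpG number and level, followed by a pair of starts of a single gene that fell in opposite classes and by a start on a methylated tile. The sequences are from RefSeq (GRCm38.p6), and the tile coordinates are those of the deposited tables (mm9). Capitals mark the CpGs measured in every library. B2m (chr2:121973001-121974000, plus strand) encodes the light chain of MHC class I, Csf3r (chr4:125701001-125702000, plus strand) the receptor of the granulocyte growth factor G-CSF, Jak3 (chr8:74200001-74201000, plus strand) a kinase of cytokine receptors in lymphoid cells, and Pax5 (chr4:44723001-44724000, minus strand) a transcription factor of B cell identity.
B2m: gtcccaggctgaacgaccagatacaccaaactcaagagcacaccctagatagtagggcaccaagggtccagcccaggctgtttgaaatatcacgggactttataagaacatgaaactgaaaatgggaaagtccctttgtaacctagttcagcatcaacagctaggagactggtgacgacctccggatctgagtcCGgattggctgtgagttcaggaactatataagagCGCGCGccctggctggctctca
Csf3r: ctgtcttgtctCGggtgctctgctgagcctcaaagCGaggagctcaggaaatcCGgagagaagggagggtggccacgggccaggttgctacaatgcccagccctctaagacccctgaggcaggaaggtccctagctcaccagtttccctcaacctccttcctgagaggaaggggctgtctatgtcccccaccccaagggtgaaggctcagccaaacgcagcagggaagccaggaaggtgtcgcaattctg
Jak3: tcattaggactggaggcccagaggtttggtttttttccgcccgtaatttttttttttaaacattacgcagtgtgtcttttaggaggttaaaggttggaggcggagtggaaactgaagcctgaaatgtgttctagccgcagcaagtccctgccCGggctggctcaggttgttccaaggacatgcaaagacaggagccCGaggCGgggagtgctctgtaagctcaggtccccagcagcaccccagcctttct
Pax5: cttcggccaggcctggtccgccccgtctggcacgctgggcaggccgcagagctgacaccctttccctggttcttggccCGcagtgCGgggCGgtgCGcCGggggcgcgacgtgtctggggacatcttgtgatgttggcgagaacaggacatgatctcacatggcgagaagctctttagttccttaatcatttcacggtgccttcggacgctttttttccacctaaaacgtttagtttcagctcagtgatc
Pvalb, start on an unmethylated tile (chr15:78034001-78035000, minus strand): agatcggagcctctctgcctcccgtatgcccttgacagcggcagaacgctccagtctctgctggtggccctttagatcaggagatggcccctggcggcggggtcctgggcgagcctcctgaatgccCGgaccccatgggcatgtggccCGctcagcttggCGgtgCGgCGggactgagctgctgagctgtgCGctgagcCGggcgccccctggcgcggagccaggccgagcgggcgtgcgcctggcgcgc
Pvalb, start on a methylated tile (chr15:78036001-78037000, minus strand): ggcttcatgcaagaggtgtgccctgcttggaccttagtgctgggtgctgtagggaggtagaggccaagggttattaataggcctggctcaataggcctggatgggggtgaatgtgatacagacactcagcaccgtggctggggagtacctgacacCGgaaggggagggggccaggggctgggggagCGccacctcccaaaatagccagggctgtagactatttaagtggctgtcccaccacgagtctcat
Ckm, start on a methylated tile (chr7:19996001-19997000, plus strand): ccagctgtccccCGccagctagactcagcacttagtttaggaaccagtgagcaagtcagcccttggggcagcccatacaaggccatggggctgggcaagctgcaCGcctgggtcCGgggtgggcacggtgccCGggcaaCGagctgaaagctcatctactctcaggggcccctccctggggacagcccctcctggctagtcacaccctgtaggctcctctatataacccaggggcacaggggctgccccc

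In the B2m sequence 4 of 8 CpGs were measured and in that of Pax5 5 of 19, so tiles with few covered CpGs need not have few CpGs. The measured CpGs of Pax5 lay within positions 44723717 to 44723737. Csf3r had 3 of 6 measured and Jak3 3 of 8. The printed Pvalb starts had 23 CpGs on the unmethylated tile and 4 on the methylated tile, of which 7 and 2 were measured.

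The tiles were the lower end of a distribution with 2 peaks. Of the 62044 sparsely covered tiles, 39007 (62.9%) had a wild-type level of 90 to 100%, and the numbers in between were low, as the plot of tiles by wild-type level shows. Within the chosen tiles, 1999 (37.7%) were under 1%, 1461 (27.6%) from 1 to 5%, 835 (15.7%) from 5 to 10% and 1008 (19.01%) from 10 to 20%. The threshold of 20% therefore fell in a flat part of the distribution. The 3 tiles just inside it, chr15:79781001-79782000, chr5:17942001-17943000 and chr11:118897001-118898000, had wild-type means of 19.96, 19.97 and 19.98%. The 3 just outside, chr7:6723001-6724000, chr1:134636001-134637000 and chr5:124472001-124473000, had 20.01, 20.02 and 20.02%.

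**Figure D1:**
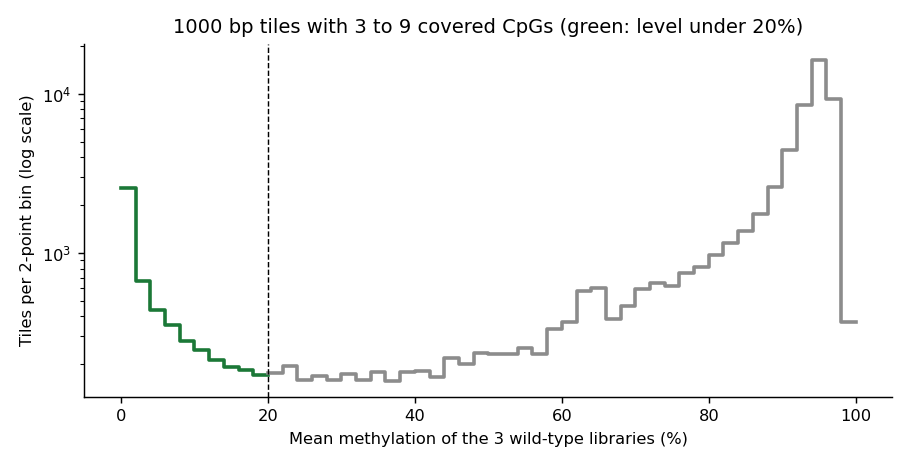
Number of 1000 bp tiles with 3 to 9 covered CpGs (log scale) per 2-point bin of the mean methylation level of the 3 wild-type libraries. The 5303 tiles under 20% (green line, left of the dashed line) form the smaller peak, and 39007 of all 62044 tiles lie at 90 to 100%.

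The targeted libraries did not enter the choice, and the tiles were low in them too. The mean level over the tiles was 6.32% in targeted library 1, 5.04% in targeted library 2, and 4.83%, 4.68% and 4.78% in the wild type. Both targeted libraries were above all wild-type libraries, and targeted library 1 stood furthest apart. The group means were 5.68% ± 0.904 (SD, n = 2) and 4.76% ± 0.0785 (SD, n = 3), a difference of 0.915 points. This order of the libraries was not particular to these tiles. Sparsely covered tiles of 80% or more had 94.1% and 93.5% against 93.3%, 93.2% and 93.0%. Unmethylated tiles with 10 or more CpGs had 1.73% and 1.47% against 1.41%, 1.40% and 1.37%. Of the 5303 tiles, 4872 (91.9%) and 5129 (96.7%) were under 20% in the targeted libraries, against 5195, 5223 and 5212 in the wild type. A level of 40% or more was reached by 6 tiles in targeted library 1 and by 0 tiles in each of the other 4 libraries. The wild-type counts are largely set by the choice, and these counts were not redone with a wild-type library left out.

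A wild-type library that enters the choice is not an independent reference, so each was also left out of the choice in turn. Wild-type library 1 had 5.004% over the 5324 tiles chosen without it, where the targeted libraries had 6.43% and 5.11%. Wild-type library 2 had 4.78% over the 5303 tiles chosen without it, against 6.33% and 5.04%. Wild-type library 3 had 4.91% over its 5316 tiles, against 6.37% and 5.07%. Both targeted libraries stayed above the library left out in all 3 choices, by 0.764, 0.910 and 0.819 points in the mean of the targeted pair. The difference over the 5303 tiles was 0.275 points when targeted library 1 was left out and 1.55 when targeted library 2 was.

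In points, the difference was larger at higher wild-type levels, but relative to the wild-type level it was largest in tiles under 1%. The classes were cut on the same wild-type values, with no library held out. The order of the libraries within a class is therefore not free of the choice. In tiles under 1%, the means were 0.503% and 0.412% in the targeted and 0.319%, 0.301% and 0.303% in the wild type. In tiles of 10 to 20% they were 19.1% and 15.2% against 14.8%, 14.3% and 14.7%. Targeted library 1 was the highest of the 5 libraries in all 4 classes of wild-type level and targeted library 2 was the next, as the plot of levels by class shows. The lowest class held many tiles with no methylated read at all: over all 5303 tiles these were 911 and 646 in the targeted pair and 775, 711 and 822 in the wild type. The median number of counts per tile was 393 and 549 in the targeted libraries, against 503, 537 and 530.

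**Figure D2:**
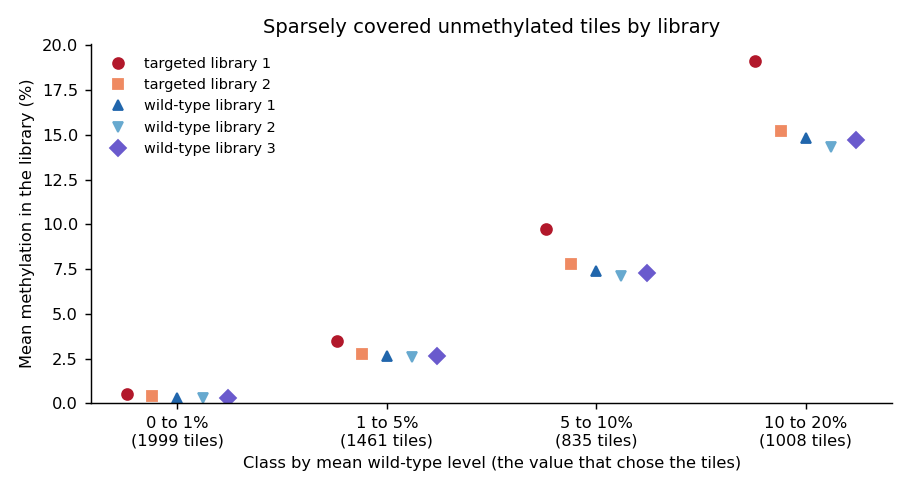
Mean methylation (%) of the sparsely covered unmethylated tiles in each of the 5 libraries, for 4 classes of the mean wild-type level that chose the tiles; each point is a library's mean over the tiles of the class. Targeted library 1 is the highest point in every class, at 19.1% against 14.3 to 15.2% in the class of 10 to 20%.

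The single CpGs followed the tile means. All covered CpGs were under 20% in the mean of the targeted libraries in 4062 tiles (76.6%), and 173 tiles (3.26%) held a CpG of 50% or more. The median range among the CpGs of a tile was 4.66 points, against 6.56 in the 46901 sparsely covered tiles of 80% or more and 2.14 in the 17332 tiles with 10 or more CpGs and a wild-type level under 20%, called dense below. Only 21 tiles held both a CpG of 80% or more and a CpG under 20%. The covered CpGs of a tile spanned a median of 105 bp, close to the 104 bp of the methylated tiles and less than the 446 bp of the dense tiles. CpGs of a tile often share reads, so they are not independent measurements.

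The tiles also differed among themselves in CpG number. Of the sparsely covered tiles with 3 covered CpGs, 5.53% were under 20%, and the share was larger at each further CpG up to 23.2% of those with 9. The targeted mean moved the other way, from 7.10% over the 1359 tiles with 3 CpGs to 3.40% over the 411 with 9. By chromosome, the share of sparsely covered tiles under 20% ran from 6.76% on chromosome 18 to 10.9% on chromosome 19, and chromosomes 11 and 7 held most tiles, 444 and 432.

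None of these tiles passed the test of a difference between targeted and wild-type libraries. The edgeR quasi-likelihood test was run on the methylated and unmethylated counts of 90457 tiles, and a call needed an adjusted p under 0.05 and 10 points or more between the groups. Of all tiles tested, 0.0144% were called, and of the 5187 unmethylated sparsely covered tiles tested, 0 were called. The smallest edgeR adjusted p among them was 0.401. With so small a share called over all tiles, 0 calls are not read as a result about these tiles. The tiles tested also include chromosome 6 beyond 100 Mb, which was left out of the choice. The tile chr13:4608001-4609000 was called only without targeted library 2, where the difference was 14.6 points, against 8.48 with all 5 libraries. It had 15.9% in targeted library 1 and 3.66% in targeted library 2. The fit without targeted library 2 leaves a lone targeted library, which is assumed to vary like the wild-type libraries. With the replicate number as a block edgeR called 1 of the tiles, chr1:140736001-140737000 (adjusted p = 0.0184). Over all 90457 tiles that fit called 4 higher and 17 lower. No targeted library has the number of wild-type library 3, so that library drops out of the group comparison in that fit. The other 116 unmethylated sparsely covered tiles had no methylated count in any library and were not tested. Because the tiles were chosen for a low wild-type level, the choice favours upward differences and leaves little room for lower ones.

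At an unadjusted p under 0.05 in the same edgeR fit, 429 of the tiles (8.27%) were higher in the targeted libraries and 103 (1.99%) lower, against 5.33% and 0.984% of all tiles tested. limma on log2 ratios called 0 as well, with 418 (8.06%) and 119 (2.29%) at an unadjusted p under 0.05, against 5.28% and 1.22% of all tiles. When targeted library 1 was left out of the edgeR fit, 255 tiles (4.94%) were higher and 148 (2.87%) lower, against 3.13% and 1.3% of all tiles. When targeted library 2 was left out, 747 (14.6%) were higher and 85 (1.66%) lower, against 9.21% and 1.11%. The counts among these tiles and the shares over all tiles thus moved together with the library left out. Both targeted libraries were above all wild-type libraries in 910 tiles (17.2%), near the 17.5% of all tiles, and both were below in 271 (5.11%), against 5.41%. Taken alone, targeted library 1 was above all wild-type libraries in 2291 tiles (43.2%) and targeted library 2 in 1528 (28.8%). The share over all tiles was not counted for a library alone, so these counts are not read as a result about the tiles. In 3255 tiles (61.4%) the group means differed by less than 1 point, and a difference of 10 points or more was found in 55 tiles upward and in 1 downward. The rule leaves little room for a drop of 10 points, so this split is largely set by the choice. Differences of this size were not counted over all tiles.

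The single CpGs gave no call either. Of all CpGs tested, 0.00857% were called by edgeR at an adjusted p under 0.05 and 25 points. With so small a share, 0 calls are not read as a result about the CpGs of these tiles. Of the 21679 tested CpGs of these tiles 0 were called by edgeR, with a smallest adjusted p of 0.876. At an unadjusted p under 0.05, 635 (2.93%) were higher and 155 (0.715%) lower, against 2.33% and 0.682% of all CpGs. limma called 0, with 986 (4.55%) and 267 (1.23%) at an unadjusted p under 0.05, near the 4.08% and 1.16% of all CpGs. Without targeted library 2, 4 CpGs had an edgeR adjusted p under 0.05, the smallest 0.00322, and their largest difference, 20.2 points, was under the 25 points a call needs.

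The 6 tiles with the smallest p values show how such differences look in the libraries. The smallest p belonged to chr7:4484001-4485000, which holds a start of Dnaaf3, a gene for the assembly of ciliary dynein arms. Its level over 3 CpGs was 3.25% and 9.02% in the targeted and 0.595%, 0.392% and 1.48% in the wild type. The groups did not overlap, the difference was 5.32 points, and the adjusted p in edgeR was 0.401. The tile next to it, chr7:4483001-4484000, was among the 6 as well. Its 7 CpGs had 19.4% and 24.5% against 7.68%, 9.22% and 8.96%, without overlap and with an edgeR adjusted p of 0.614. At position 4483894, the last CpG of that tile, the levels were 4.3% and 17.1% against 2.6%, 2.6% and 0%, and at 4483874, 20 bases before it, 26.6% and 38.8% against 13.3%, 18.6% and 16.4%.

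The tile with the largest difference of the 6, chr15:75832001-75833000, had 45.3% and 32.4% in the targeted and 13.9%, 14.7% and 18.6% in the wild type. At all 4 of its CpGs both targeted libraries were above all wild-type libraries, by the smallest margin at 75832507, where targeted library 2 had 29.2% and wild-type library 3 had 27.5%. The difference was 23.1 points, and the edgeR adjusted p was 0.487. Tile chr1:140736001-140737000 had 28.4% and 21.9% against 3.52%, 6.71% and 12.3%. The wild-type libraries spread widely there, the groups did not overlap, and the adjusted p was 0.536 in edgeR. It was 0.0184 in edgeR with the replicate number as a block. That fit leaves wild-type library 3, the highest wild-type library at this tile, out of the group comparison. Tile chr13:117087001-117088000 had 8.25% and 5.69% against 1.82%, 2.01% and 1.34%, with an edgeR adjusted p of 0.439. Tile chr11:18907001-18908000 went the other way. It had 0% in both targeted libraries but 3.89%, 2.32% and 6.27% in the wild-type ones, with an edgeR adjusted p of 0.578 and between 141 and 324 counts per library. No gene start was placed on these 4 tiles.

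The 6 tiles with the highest targeted mean include chr15:75832001-75833000, and in the other 5 targeted library 1 was the highest of all libraries. Tile chr9:44454001-44455000 had 53.3% and 24.0% against 22.4%, 12.9% and 24.2%, from only 54 to 104 counts per library. Tile chr5:100286001-100287000 had 52.1% and 21.4% against 31.3%, 13.7% and 7.88%. In both, targeted library 2 lay inside the range of the wild-type libraries. Tile chr19:61251001-61252000 had 39.99% and 26.4% against 7.44%, 21.4% and 7.91%, and tile chr12:86778001-86779000 had 37.7% and 28.3% against 21.3%, 20.2% and 15.1%, both without overlap. Tile chr9:68814001-68815000 had 42.5% and 22.3% against 29.9%, 9.54% and 19.3%. None of these 5 passed the adjusted threshold in edgeR, as for all tiles described.

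**Figure D3:**
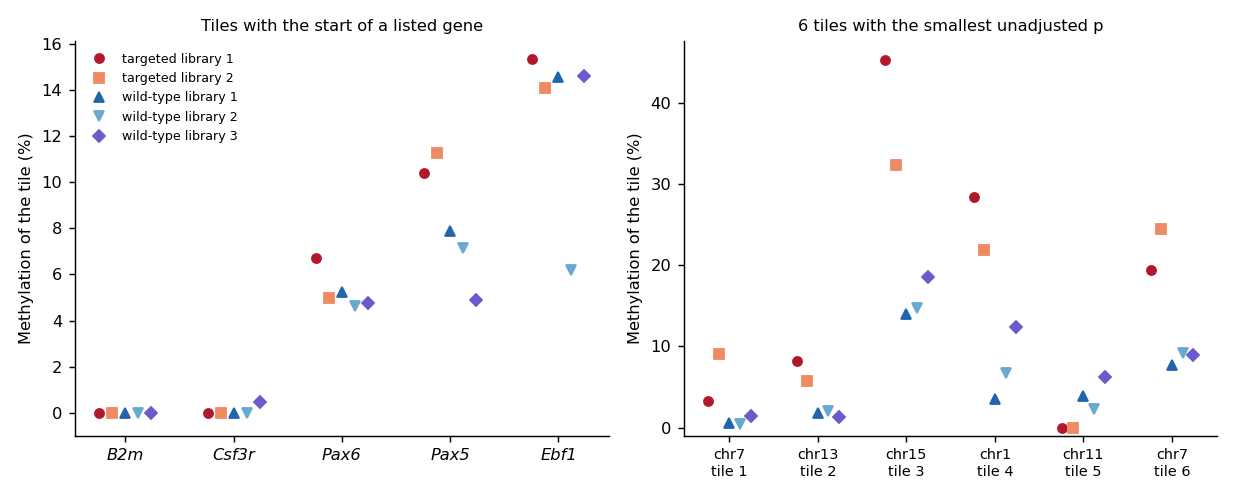
Methylation (%) of single sparsely covered unmethylated tiles, each point a library: left, the 5 tiles with the start of a listed gene; right, the 6 tiles with the smallest unadjusted p, in the order chr7:4484001, chr13:117087001, chr15:75832001, chr1:140736001, chr11:18907001 and chr7:4483001. On the right the targeted and wild-type points do not overlap in any tile, and the tiles were chosen for a small p; on the left they separate for Pax5 alone.

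The rule did not use the methylation of a tile's neighbours, except where a neighbour was itself a chosen tile. Of the 5303 tiles, 2920 (55.1%) had no covered CpG in either neighbour tile, so their extent could not be measured. In 1715 tiles a neighbour held 3 or more CpGs. The neighbour level, in the mean of the targeted libraries, was under 20% in 1089 of them (63.5%), from 20 to 80% in 327, and 80% or more in 299 (17.4%). A further chosen tile was directly next to 1025 of the tiles. The wild-type level of such a neighbour was under 20% by the rule, so the share under 20% is partly set by the choice. The share among neighbours that were not chosen tiles was not counted, so no statement on low methylation past a tile's border is drawn from it.

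The neighbour tiles were a little higher in the targeted libraries. Neighbours can themselves be tiles chosen by their wild-type level, here and for the other 2 kinds of tile. The comparison is therefore not free of the choice. The mean over 2699 neighbour tiles was 32.0% and 30.4% in the targeted and 30.3%, 30.0% and 30.0% in the wild type. Targeted library 1 was highest, and targeted library 2 was above the wild-type libraries by a small margin. The means were 31.2% ± 1.11 (SD, n = 2) and 30.1% ± 0.148 (SD, n = 3), a difference of 1.09 points, with an exact permutation p of 0.1 (two-sided, 10 splits), the smallest this design can give. Leaving out targeted library 1 gave a difference of 0.309 points, and leaving out targeted library 2 gave 1.87. Neighbours of methylated sparsely covered tiles had 86.7% against 85.8%, and neighbours of dense tiles 11.2% against 10.6%, with an exact permutation p of 0.1 each. A shift of this kind was therefore also seen beside the other 2 kinds of tile, and no difference between the kinds was tested.

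The 3 kinds of tile had different surroundings in all 5 libraries. Around the sparsely covered unmethylated tiles, the wild-type means were between 29.0 and 31.3% in the adjacent tiles and between 50.4 and 50.7% at 2 kb. At 10 kb they lay between 59.4 and 60.7%. Around dense tiles the adjacent tiles were still at 10.4 to 10.9% and those at 2 kb at 37.0 to 37.7%. The dip around a sparsely covered tile was thus narrower on average than that around a dense tile, as the profile plot shows. The rule itself limits the neighbours of a sparsely covered tile to fewer than 10 CpGs, while a dense tile can lie next to another dense tile. Around methylated tiles, the level at 10 kb was 69.2 to 69.6%. The nearest dense tile was a median of 27 kb from the sparsely covered unmethylated tiles (quartiles 9 and 76 kb) and 51 kb from the methylated ones (18 and 146 kb). Within 5 kb of a dense tile lay 932 of the unmethylated tiles (17.6%) and 6.85% of the methylated ones.

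**Figure D4:**
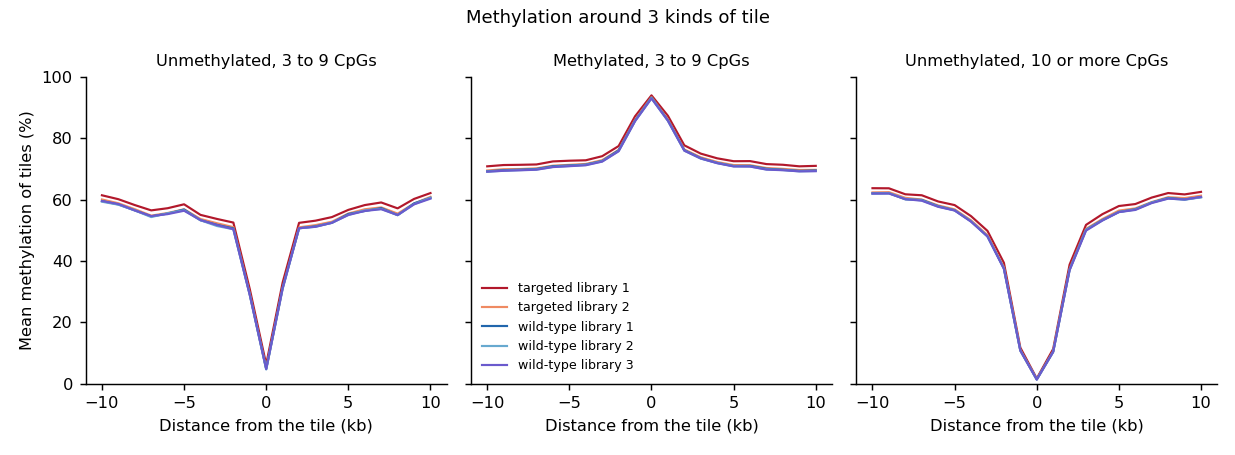
Mean methylation (%) of the covered tiles at each distance (kb) from the 3 kinds of tile, by library. Around sparsely covered unmethylated tiles (left) the wild-type libraries are at 50.4 to 50.7% at 2 kb, while at 2 kb from dense tiles (right) the wild-type libraries are at 37.0 to 37.7%. The values at 0 kb were used to choose the tiles, and tiles at other distances can be chosen tiles too.

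In 137 tiles both neighbours held 3 or more CpGs, and in 9 of these both neighbours were at 80% or more. The 6 tiles with the largest step to their neighbours were islands of low methylation within methylated DNA. Tile chr13:53860001-53861000 had 0.926% and 0.565% in the targeted and 0.766%, 1.08% and 0.195% in the wild-type libraries, with neighbours at 91.7% in the targeted mean. In tile chr2:172984001-172985000 the levels were 3.16% and 3.32% against 1.49%, 0.873% and 1.33%, with neighbours at 93.5%. In tile chr5:125664001-125665000 they were 1.54% and 2.49% against 2.32%, 1.89% and 3.37%, with neighbours at 88.3%. These 3 tiles were low in all 5 libraries, and the groups overlapped in 2 of them. The step was sharp on chromosome 13: the CpG at 53859763 had 100% and 80.3% in the targeted and 98.1%, 96.2% and 100% in the wild-type libraries, while that at 53860434 had 0% in all 5.

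The other 3 islands varied more among their CpGs. In tile chr12:101406001-101407000, with 17.7% and 10.6% against 13.1%, 12.2% and 11.9%, the first CpG at 101406192 had 57.9% and 38.7% against 42.9%, 39.5% and 39.2%. Further in, the CpG at 101406590 had 0% in all 5 libraries. Tile chr12:25903001-25904000 had 20.3% and 10.1% against 13.0%, 11.7% and 10.2%, and its first CpG at 25903512 had 46.9% and 26.8% against 34.3%, 27.5% and 29.4%. In both tiles the partly methylated CpG was the first of the tile, and targeted library 1 was the highest there. Tile chr5:24563001-24564000 had 13.8% and 12.4% against 17.8%, 17.5% and 17.6%. Its middle CpG, at 24563549, had 0% and 5.0% against 0% in all 3 wild-type libraries, and the CpGs on both sides of it were higher in every library. Over the tile both targeted libraries were below all wild-type libraries, with an unadjusted edgeR p of 0.408.

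Gene starts were found on a minority of the tiles. No annotation of mm9 was used, and starts were placed by matching the CpG pattern of a promoter sequence (250 bases before to 50 after the start) to the CpG positions of the tables. Promoters of chromosome 18 were not analysed here, and of the 5168 tiles on the other autosomes 521 (10.1%) held a placed start, with 573 promoters of 542 genes. Of the methylated sparsely covered tiles 0.476% did, and of the dense tiles 40.6%. A start needs 3 covered CpGs to be placed, so promoters with few CpGs or few MspI sites are missed and the 4647 tiles with no placed start can hold starts too.

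The promoters on these tiles lay between the other 2 kinds in CpG content. They held a median of 15 CpGs in 300 bases (quartiles 11 and 19), against 8 (6 and 10) for the 226 promoters on methylated sparsely covered tiles and 27 (20 and 34) for those on dense tiles. Their median G+C content was 58.0%, against 53.7% and 66.3%. Over all promoters of the table, also those that cannot be placed, the medians were 7 CpGs and 52.7%. Names of predicted genes or clones made up 18.5% of the promoters on these tiles and 61.5% of those on methylated tiles. The placement needs covered CpGs, which raises the CpG number of every placed group, and the distributions are drawn in the plot of CpG content.

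**Figure D5:**
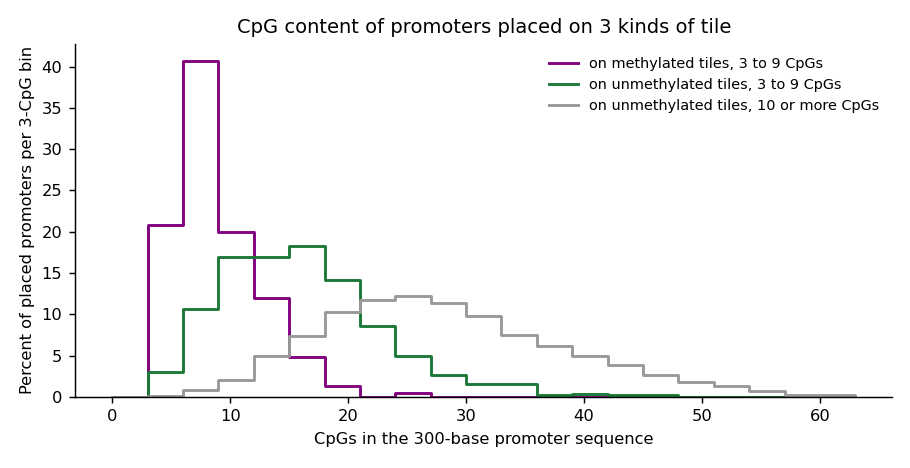
Percent of placed promoters per bin of 3 CpGs against the number of CpGs in the 300-base promoter, for promoters on the 3 kinds of tile. Promoters on sparsely covered unmethylated tiles (green, median 15) lie between those on methylated tiles (purple, median 8) and dense tiles (grey, median 27).

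Tiles with a placed start were lower than the rest. Their median in the targeted mean was 0.370%, and 64.3% of them were under 1%, while tiles with no placed start had a median of 2.99% and 32.6% under 1%. The mean level of the tiles with a start was 2.85% and 2.37% in the targeted and 2.29%, 2.21% and 2.17% in the wild type. In tiles without a placed start it was 6.70% and 5.34% against 5.12%, 4.96% and 5.08%. In both sets the targeted means were above all wild-type means, and that of targeted library 1 was highest. The medians of the tiles with a start did not keep this order, at 0.317% and 0.343% against 0.338%, 0.325% and 0.272%, so that targeted library 1 lay inside the wild-type range. Of the 495 tested tiles with a start 0 were called by edgeR, with 37 higher (7.47%) and 8 lower (1.62%) at an unadjusted p under 0.05. Of the 4558 tested tiles without a placed start 0 were called by edgeR, with 380 (8.34%) and 91 (1.996%). Over all tiles tested the shares were 5.33% higher and 0.984% lower, and 0.0144% were called. With so few calls over all tiles, 0 calls are not read as a result about either set.

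Promoters with more CpGs had lower levels in the targeted libraries. The median was 0.772% for the 115 promoters of 3 to 9 CpGs, 0.328% for the 157 of 10 to 14, 0.231% for the 161 of 15 to 19 and 0.121% for the 140 of 20 to 46. A level of 5% or more was found in 24.3% of the promoters of the first class and in 5.0% of the last. The wild-type rule of under 20% limits this range from above.

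Short letters of known binding motifs were counted in the promoters on both strands, as a description. The SP/KLF letters GGGCGG were in 53.1% of the promoters on these tiles, in 13.3% of those on methylated sparsely covered tiles, in 77.6% of those on dense tiles and in 35.7% of all promoters. The ETS letters CCGGAAG, which include the MspI site, were in 22.9%, 19.9%, 21.6% and 8.86% in the same order. The NFY letters CCAAT were in 45.0%, 35.0%, 33.0% and 37.4%, and CRE, TGACGTCA, in 3.32%, 0.885%, 3.44% and 1.79%. Letters that were commoner on methylated sparsely covered tiles included the RUNX letters TGTGGT, with 16.6% on these tiles, 24.3% on methylated tiles, 9.10% on dense tiles and 16.8% of all promoters. The same held for the E-box CAGCTG (15.5%, 24.8%, 13.9% and 16.3%), for the AP-1 letters TGANTCA (5.41%, 11.1%, 3.24% and 7.81%) and for the GATA letters AGATAA (7.68%, 11.9%, 3.55% and 11.2%). Base composition differs between the 3 kinds of promoter, and its part in these shares was not tested. In the printed sequences, B2m holds CCAAT on 1 strand, Jak3 holds GGGCGG once and Pax5 holds it at 2 places, while the methylated Pvalb start holds CCGGAAG and the Ckm sequence CAGCTG, once each.

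Gene lists were read through these placed starts. Of 42 regulators of blood cells, 19 had a placed start, 16 on dense tiles and 3 on the sparsely covered unmethylated tiles: Csf3r, Pax5 and Ebf1. Of 10 genes of DNA methylation and chromatin, 8 were placed, all with a start on a dense tile. Of 10 maintenance genes 5 were placed, 4 on dense tiles and B2m on the tiles described here. Of 11 lineage genes that blood does not use 3 were placed, all with a start on a dense tile, and Pax6 had a further start on the tiles described here. Of 944 olfactory receptor genes 1 was placed, on a methylated tile. Of the 35 placed genes of the 4 lists of regulators, chromatin, maintenance and lineage, 0 had a start on a methylated sparsely covered tile, where 220 of all 9038 placed genes (2.43%) had one.

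B2m and Csf3r were at the floor of the assay. B2m had 0% in all 5 libraries, with 337 and 444 counts in the targeted and 483, 493 and 811 in the wild-type libraries, which allows a level of up to 0.890%, 0.676%, 0.621%, 0.609% and 0.370% (3 counts of the total, counting error only). These counts are summed over 7 CpGs, and CpGs of a tile often share reads. The limits treat the counts as independent and are therefore too tight. Csf3r had 0% in both targeted libraries, against 0%, 0% and 0.457%. It had 3 measured CpGs at a mean coverage of only 21.3 to 72.3 reads, so its level is less closely limited than that of B2m. The measured CpGs of its printed sequence lie at its 5′ end, well before the start. Both genes are used by LSK cells or their progeny, and expression was not analysed here.

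The B cell genes on these tiles, Pax5 and Ebf1, were partly methylated in the tile of their placed start. Pax5 had 10.4% and 11.3% in the targeted and 7.87%, 7.13% and 4.89% in the wild type. Both targeted libraries were above all wild-type libraries, the difference was 4.19 points, and the adjusted p in edgeR was 0.803. Mean coverage of its CpGs was only 16.0 to 40.8 reads. Ebf1, a factor that acts before Pax5 in B cells (chr11:44433001-44434000), had 15.3% and 14.1% against 14.6%, 6.18% and 14.6%. The groups overlapped, and the edgeR adjusted p was 0.899. Pax6, a transcription factor of eye and brain (chr2:105522001-105523000), had 6.72% and 4.97% against 5.23%, 4.63% and 4.75%, again with overlap and an edgeR adjusted p of 0.911.

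The genes that follow were chosen after their values were seen. They follow no fixed list, and low levels are usual at the starts on these tiles. Itga2b, the platelet and progenitor integrin CD41 (chr11:102331001-102332000), had 0.460% and 1.01% in the targeted and 1.33%, 1.23% and 2.51% in the wild type. Both targeted libraries were below all wild-type libraries, with a difference of -0.951 points and an edgeR adjusted p of 0.792. Jak3 had 0% in both targeted libraries, against 0%, 0.351% and 0%, and Stat6, a signal transducer of interleukin 4, had 0% in all 5. Il4ra, the receptor chain for interleukin 4 (chr7:132695001-132696000), had 0.270% and 0.376% against 0% in all 3 wild-type libraries, with an edgeR adjusted p of 0.790. Eng, a coreceptor for TGF-beta (chr2:32502001-32503000), had 0% and 0.134% against 0%, 0.746% and 0%.

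Icam1, a leukocyte adhesion molecule (chr9:20820001-20821000), had 0.0597% and 0.129% against 0.109%, 0.393% and 0.383%. Irf9, a factor of the interferon response (chr14:56222001-56223000), had 0.0911% and 0.326% against 0.720%, 0.453% and 0.955%, with both targeted libraries below all wild-type libraries. Per1, of the circadian clock, had 0% in all 5 libraries, and the ribosomal protein gene Rpl13a (chr7:52384001-52385000) had 0% and 0.0608% against 0.0689%, 0% and 0.125%.

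Other starts, chosen for partial methylation, were above 4% in every library, with Cxcl2 shown for comparison. Cxcl3 (chr5:91215001-91216000), a chemokine for neutrophils, had 16.9% and 15.9% in the targeted and 14.98%, 14.4% and 15.5% in the wild type. The related chemokine gene Cxcl2 (chr5:91332001-91333000), on the same chromosome, had 1.05% and 2.23% against 1.29%, 0.790% and 1.47%, so the levels of the related genes were far apart in every library. Epo, the erythropoietin gene (chr5:137927001-137928000), had 24.8% and 10.4% against 9.83%, 15.1% and 17.0%, with targeted library 2 inside the wild-type range. Tfap2a, a factor of skin and neural crest (chr13:40830001-40831000), had 13.2% and 11.7% against 13.2%, 13.6% and 12.0%. The melatonin receptor gene Mtnr1a (chr8:46154001-46155000) had 11.9% and 12.1% against 8.30%, 8.96% and 8.96%, without overlap and with an edgeR adjusted p of 0.790. Dok3, an adaptor of immune receptor signalling (chr13:55629001-55630000), had 12.4% and 9.21% against 4.56%, 5.62% and 6.66%, without overlap and with an edgeR adjusted p of 0.803.

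Genes with symbols of zinc finger proteins (Zfp, Zkscan, Zscan) made up 25 of the 542 genes (4.61%), against 0 of 220 on methylated sparsely covered tiles, 1.81% of genes on dense tiles and 1.32% of all genes of the promoter table. The other 2 symbol groups counted were also above the share of the whole table: ribosomal proteins had 8 genes (1.48% against 0.537%) and solute carriers 11 (2.03% against 1.09%). On dense tiles their shares were above the whole table as well, at 1.09% for ribosomal proteins and 1.65% for solute carriers. These symbol groups were chosen after the genes were seen. Of the 25, 20 had a tile under 1% in the targeted mean, with a median of 0.160%, and 3 had 5% or more. Zfp112 (chr7:24897001-24898000) was among these, at 21.9% and 18.7% against 15.05%, 20.9% and 21.5%. At Zfp933 (chr4:147222001-147223000) targeted library 1 stood alone, at 12.7% against 0% in targeted library 2 and 0.900%, 0.123% and 0% in the wild type. The edgeR adjusted p was 0.790. Many zinc finger genes have similar copies in the genome, and the effect of this on read placement was not tested.

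The pairs of starts of a single gene show the contrast within a few kilobases. Pvalb, for the calcium-binding protein parvalbumin of muscle and neurons, had 0.612% and 0.276% in the targeted and 0.893%, 0.489% and 0.433% in the wild-type libraries at the CpG-rich start printed above. At its other start, 2163 bases away, it had 97.7% and 96.0% against 96.0%, 98.4% and 95.0%. Taf1c, for a factor of RNA polymerase I, had 0.0909% and 0.0693% against 0%, 0.0372% and 0.0767% at a start with 15 CpGs, and 98.0% and 97.4% against 96.7%, 96.9% and 96.8% at a start 2560 bases away with 12 CpGs. In both genes each start kept its class in all 5 libraries. Ckm, the muscle creatine kinase gene, had a methylated start, at 89.9% and 90.4% against 88.2%, 87.8% and 88.4%.

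The depth of these tiles differed between targeted library 1 and the other libraries. The median coverage per CpG was 80.7 and 115 reads in the targeted pair and 104, 114 and 110 in the wild type. On methylated sparsely covered tiles it was 95.3 and 80.7 against 75.7, 81.7 and 83.0, so targeted library 1 had fewer reads on unmethylated and more on methylated tiles. Relative to the mean coverage of all tiles of the library, the unmethylated tiles had 0.836 and 1.15 in the targeted and 1.12, 1.14 and 1.14 in the wild type. Targeted library 2 was near the wild-type libraries and library 1 well below them. The difference of the group means was -0.142, with an exact permutation p of 0.4 (two-sided), and without targeted library 1 it was 0.0137. The same library had the highest methylation in every class, and the part of its read distribution in that level was not tested.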

How the data were processed

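ERRBS was measured in 2 targeted and 3 wild-type libraries of LSK cells, grouped by their titles; the targeted gene is not reported here. Per the file headers, a line of the deposited tables is a CpG cytosine on a strand, with a coverage, the whole-number count of reads without normalization, and the percent of those reads with C and with T. The submitters' processing notes name Bismark and mm9 (NCBIM37), with a version not given in the sources used here. Coverage in each table starts at 10 reads. The tables hold 1354420 to 1473602 entries, and median coverage was 70 and 99 in the targeted and 91, 96 and 75 in the wild-type libraries.

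Strands were merged, and methylated counts were recovered as the percent times the coverage, within 0.01 of a whole number for 99.97% of the entries of every library. A tile's level is the mean over its CpGs. Chromosome 6 beyond 100 Mb, the sex chromosomes, and CpGs not covered in all 5 libraries were left out of the choice. The tile test was the quasi-likelihood test of edgeR 4.0.16 (R 4.3.3) with a factor for each library, a common dispersion and Benjamini-Hochberg adjustment over all tiles or all CpGs tested. It was tested on simulated data. limma 3.58.1 used log2 ratios with 1 read added. A read covering several CpGs counts once for each.

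RefSeq promoters (GRCm38.p6) were placed where the pattern of their CpGs met the positions in the tables. Anchors needed 10 coinciding CpGs with a lead of 4 over the next place (6881 of 31396 autosomal promoters). Other promoters were placed at the shift of a neighbouring anchor where at least 3 covered CpGs, and every covered CpG, coincided, which gave 10221. None was placed when moved by 1000 bases, and 0 anchors were found on another chromosome. Coordinates are those of mm9.

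Tiles were named by rule: calls, the 6 smallest p, the 6 largest steps to both neighbours, the 6 highest targeted means, 3 on each side of the threshold, and listed genes. Members, lists and tests were chosen with earlier results of these data known. Figures used matplotlib 3.10.9.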

Additional observations from a re-analysis of the deposited data

How the results depend on the processing

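Alternatives were a coverage minimum of 20, no highest 0.1% of coverage, shifted tiles, other averages and limits on level or CpG number, limma, a robust fit, other minimum differences, each library left out, and the replicate number as a block. With 5 to 9 CpGs per tile, 2848 tiles remained of 5303. With a wild-type level under 10%, 4295 remained and the difference in mean level was 0.530 points, against 0.915. That difference ran from 0.275 points (without targeted library 1) to 1.55 (without targeted library 2) when a library was left out. Of those fits, only that without targeted library 2 gave a call among the tiles, at chr13:4608001-4609000. The difference there was 14.6 points, against 8.48 with all 5 libraries, where the edgeR adjusted p was 0.742. The levels were 15.9% and 3.66% in the targeted and 1.09%, 0.669% and 2.11% in the wild-type libraries. In the fit without targeted library 2 the lone targeted library is assumed to vary like the wild-type libraries. Relative coverage ran from -0.298 to 0.0137, reversed without targeted library 1. The cause of these changes was not tested. Calls of CpGs were 0 in all alternatives run, although 4 CpGs passed the adjusted p, but not 25 points, without targeted library 2 (smallest edgeR adjusted p = 0.00322).

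The titles number both groups, and the labels do not say what a number shares. The deviations of same-numbered libraries from their group means correlated at 0.0645 and 0.0440 over the tiles. The 2 targeted deviations mirror each other, so these values are not separate checks of a pairing. Targeted library 2 and wild-type library 3, with different numbers, gave 0.0259, and the other unmatched pairs were negative. With the replicate number as a block, 1 tile was called, chr1:140736001-140737000, with an edgeR adjusted p of 0.0184. Over all tiles that fit called 4 higher and 17 lower. Wild-type library 3, the highest wild-type library at that tile, drops out of the group comparison in that fit. Over 10 alternatives the adjusted p of that tile ran from 0.0184 to 0.999. The lowest of the other 5 smallest-p tiles were 0.0725 for chr7:4484001-4485000 and 0.113 for chr15:75832001-75833000.

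Requiring 5 coinciding CpGs, chosen after seeing the data, left 287 tiles with a placed start of 521. Distances to gene starts and motifs over whole tiles were planned and not run, since they need a genome or annotation of mm9, not used here. With 2 libraries against 3, permutation tests cannot go below 0.1, and levels near 0 are limited by counts per tile. Reads carry no molecular identifiers.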
